A study of Arabidopsis thaliana with 6 samples.

Results

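The 10 genes described here encode the main reserve proteins of the Arabidopsis thaliana seed and a pair of proteins of its oil bodies. They were taken by locus from a table of 24193 genes, and comprise 3 cruciferins, or 12S globulins (CRA1, CRU2 and CRU3), 5 2S albumins (SESA1 to SESA5) and 2 oleosins (OLEO1 and OLEO2). Their RNA was measured in whole seedlings that had grown for 6 days in darkness, in 3 libraries of lon1-1 and 3 of wt, the Col-0 wild type, each labelled A, B and C. LON1 is a mitochondrial protease that degrades matrix proteins with the use of ATP, and lon1-1 is a mutant line of its gene. Growth on Petri dishes in the dark was shared by both genotypes. The sample titles give the genotype, whereas a separate genotype label names Col-0 for every library. How many seedlings made up a library is not given in the sources used here.

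Cruciferins and 2S albumins are made in the embryo during seed maturation, carried to protein storage vacuoles and cut there into their mature chains. Oleosins coat the oil bodies of the same cells and keep them from fusing. After germination these reserves are consumed as amino acids and sugar for the growing seedling, and in vegetative tissue repressors of the seed programme hold their genes at a low level. In seeds, transcription factors with a B3 domain, among them ABI3, act on these genes through RY elements with the core CATGCA, and bZIP factors act through elements with an ACGT core such as the G-box CACGTG.

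LON1 stood at 2.67, 2.61 and 2.79 FPKM (fragments per kilobase, normalised to library depth) in lon1-1 A, B and C, against 4.69, 4.70 and 4.69 FPKM in wt A, B and C. The libraries labelled lon1-1 all lay below those labelled wt (log2 fold change -0.63, limma adjusted p = 3.58e-06). Summed over the table, FPKM came to 690404 to 696877 in lon1-1 and to 719059 to 724780 in wt, and 17861 to 17879 genes in lon1-1 and 17903 to 18007 in wt reached 1 FPKM. Depth, estimated from the steps between low values, was 34250000 to 35250000 fragments in lon1-1 and 32500000 to 33000000 in wt. PORA and PORB, protochlorophyllide reductases of dark-grown seedlings, were at 101.28 to 101.86 and 134.45 to 143.03 FPKM in lon1-1, against 177.86 to 185.06 and 299.32 to 312.57 FPKM in wt, and all 6 seedling tissue markers passed 1 FPKM in every library. Of these 6, PORA, PORB and the shoot meristem gene STM were lower in lon1-1 (log2 fold changes -0.83, -1.14 and -0.79), and the root hair genes EXPA7, COBL9 and PRP3 were higher (0.99, 0.87 and 0.88), each past the threshold. The part of such tissue differences in the results below was not tested. Changes below come from limma on log2(FPKM + 1), with p adjusted by the Benjamini-Hochberg method over the 18308 genes that reached 1 FPKM in 3 or more libraries. Of those genes, 14104 (77.0%) passed the threshold of 0.05. As shares of all genes tested, 44.7% were higher and 32.3% were lower in lon1-1, so a call by itself sets no gene apart. The median log2 fold change of all genes tested was 0.08. On this scale a log2 fold change includes the added 1 and understates the change of low genes, while ratios given below are of mean FPKM. In whole seedlings, fewer cells of a type and less RNA per cell cannot be told apart.

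The 10 genes lie on 3 chromosomes of the TAIR10.1 annotation. SESA1 to SESA4 form a run on the forward strand of chromosome 4 that spans 6955 bases, with gaps of 1309, 1720 and 1032 bases, and have 1 exon each (SESA1 chr4:13607329-13608031, SESA2 chr4:13609341-13610075, SESA3 chr4:13611796-13612563, SESA4 chr4:13613596-13614283). SESA5 (chr5:22238358-22239187, reverse strand) also has 1 exon. The cruciferins are dispersed, with CRA1 at chr5:17756238-17758336 on the reverse strand, CRU2 at chr1:985751-988146 and CRU3 at chr4:14087556-14089796 on the forward strand, and 4 exons each. OLEO1 (chr4:12900430-12901577, forward strand) and OLEO2 (chr5:16173340-16174783, reverse strand) have 2 exons each. SESA2 and SESA3 share 94.1% of their aligned coding bases, CRA1 and CRU2 share 76.4%, and OLEO1 and OLEO2 share 57.3%. Although the albumins of the run are close relatives, no stretch of 50 bases in any annotated transcript of the 10 genes occurred in an annotated transcript of another gene. SESA2 and SESA3 shared a run of 49 bases, just under that length. A transcript of CRU3 added by the authors was not searched. OLEO1 overlaps AT4G25150 by 44 bases and OLEO2 overlaps AT5G40410 by 15 bases, in both cases on the opposite strand. The labels describe the libraries as stranded, and both partners averaged under 1 FPKM in each genotype.

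The 300 bases before the annotated start of 3 genes are shown because CRA1 gave the largest rise of the 10 genes, SESA1 the largest fall, and SESA4 the opposite change to SESA1 within the same run. CRA1 (chr5:17758337-17758636, reverse strand) and SESA4 (chr4:13613296-13613595, forward strand) were higher in lon1-1, and SESA1 (chr4:13607029-13607328, forward strand) was lower. Each sequence is read 5′ to 3′ along its gene in the RefSeq copy of TAIR10.1, and capitals mark CATGCA on either strand and CACGTG.
CRA1: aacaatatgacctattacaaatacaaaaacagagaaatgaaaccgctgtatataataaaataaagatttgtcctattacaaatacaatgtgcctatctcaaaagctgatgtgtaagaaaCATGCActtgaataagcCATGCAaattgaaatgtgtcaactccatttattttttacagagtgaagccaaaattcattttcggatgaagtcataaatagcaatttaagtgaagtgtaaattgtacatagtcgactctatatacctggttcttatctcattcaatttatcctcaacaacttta
SESA1: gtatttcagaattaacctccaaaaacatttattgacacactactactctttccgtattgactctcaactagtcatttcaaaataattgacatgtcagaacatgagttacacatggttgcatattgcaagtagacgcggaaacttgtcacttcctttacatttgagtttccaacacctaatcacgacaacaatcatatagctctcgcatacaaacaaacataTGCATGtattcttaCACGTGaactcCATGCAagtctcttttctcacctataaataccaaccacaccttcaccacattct
SESA4: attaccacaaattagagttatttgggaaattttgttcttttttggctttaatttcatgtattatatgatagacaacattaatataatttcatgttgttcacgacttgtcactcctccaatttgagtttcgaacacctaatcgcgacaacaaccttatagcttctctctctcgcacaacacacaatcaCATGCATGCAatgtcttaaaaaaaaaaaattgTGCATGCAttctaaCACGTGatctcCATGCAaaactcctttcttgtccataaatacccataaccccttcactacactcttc
The upstream region of SESA4 held 6 matches to CATGCA when both strands and overlapping matches were counted, and CRA1 and SESA1 held 2 each. Of the 27443 windows of this length before protein-coding genes, 10.3% held CATGCA. Its palindromic extension CATGCATG, which contains the core on both strands, was found before SESA3, SESA4 and SESA5 and in 0.955% of all windows. CACGTG stood before all 5 albumins and OLEO1, and in 7.09% of all windows. Windows with CACGTG stood before a gene that was higher (SESA4) and before genes that were lower in lon1-1 (SESA1, SESA2, SESA3 and OLEO1). SESA5, which had CACGTG, did not pass the threshold. CRA1 and OLEO2, which changed in opposite directions, and CRU3, which did not pass, had none. Any relation of these letters to the direction of change was not tested. The windows of SESA1 and SESA4 were identical at 76.5% of their aligned bases. These matches are descriptions of the letters in the windows, and binding was not measured.

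The cruciferins moved in different directions. CRA1, the cruciferin gene with the most transcript in both genotypes, had 61.29, 63.58 and 58.06 FPKM in lon1-1, against 24.47, 25.26 and 25.79 FPKM in wt. The lon1-1 libraries were all far above the wt libraries, and the ratio of the means was 2.42 (61.0 ± 2.77 in lon1-1 and 25.2 ± 0.664 in wt, SD, n = 3 each). Its log2 fold change was 1.24 (SE 0.04, 95% interval 1.15 to 1.33, limma adjusted p = 3.37e-09), a size that 5.06% of the genes tested reached in either direction. CRU2 had 1.16, 1.12 and 0.77 FPKM in lon1-1, against 2.58, 2.74 and 2.54 FPKM in wt. Its lon1-1 libraries all lay below its wt libraries, 2.58-fold lower by the means, with a log2 fold change of -0.85 (SE 0.09, limma adjusted p = 1.05e-05), or -1.30 with 0.1 added in place of 1. CRU3 had 23.41, 21.49 and 20.95 FPKM in lon1-1, against 23.33, 21.79 and 22.93 FPKM in wt. The genotypes overlapped, and the log2 fold change of -0.05 had a 95% interval of -0.15 to 0.06 (limma adjusted p = 0.398). Under median-ratio scaling CRU3 passed the threshold as lower, with -0.12 and an adjusted p of 0.0396. CRA1 thus stood at 2.78 ± 0.171 times the FPKM of CRU3 in lon1-1, against 1.11 ± 0.0565 times in wt. The table gives 3 transcripts for CRA1 and 6 for CRU3, of which 1 was added by the authors, so their gene values combine isoforms.

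**Figure D1:**
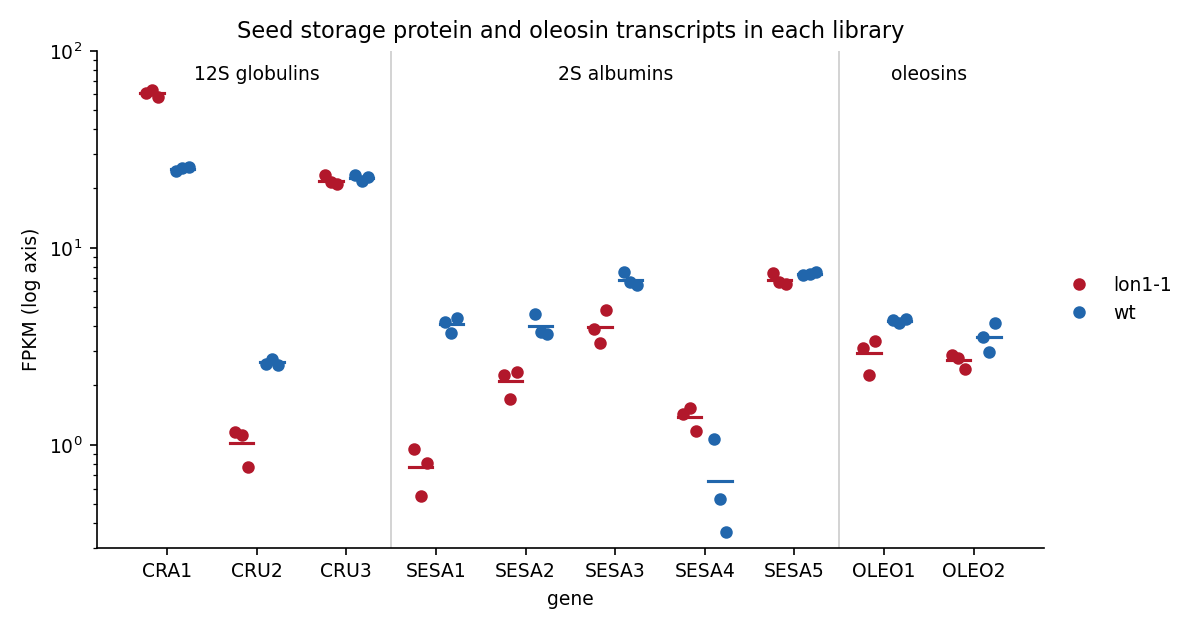
FPKM on a log axis of each of the 10 genes in each library, with lon1-1 in red left of wt in blue, points for libraries A, B and C and bars for the means. CRA1 at 58.06 to 63.58 FPKM in lon1-1 lies above its wt points, SESA1 at 0.55 to 0.95 FPKM in lon1-1 lies below its wt points, and the points of CRU3 and SESA5 overlap.

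Among the albumins, 3 of 5 fell in lon1-1, 1 rose and 1 did not pass the test. Of all genes tested, 32.3% were lower and 44.7% were higher, 77.0% in either direction. SESA1 had 0.95, 0.55 and 0.81 FPKM in lon1-1, against 4.21, 3.69 and 4.39 FPKM in wt. These groups were far apart, and SESA1 was 5.32-fold lower by the means in lon1-1, with a log2 fold change of -1.53 (SE 0.10, 95% interval -1.74 to -1.31, limma adjusted p = 3.04e-07). SESA1 passed the filter on low values only through its 3 wt libraries, so that the filter fixed the direction of its call. With no filter its limma adjusted p was 9.4e-06. Its values stand for an estimated 17, 9.92 and 14.9 fragments in lon1-1, against 72.7, 63.7 and 74.6 in wt. With 0.1 in place of 1 added before the logarithm, its log2 fold change was -2.29.

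SESA2 and SESA3, the pair of albumins with the most similar coding sequences, both fell. SESA2 had 2.26, 1.71 and 2.34 FPKM in lon1-1, against 4.62, 3.75 and 3.64 FPKM in wt, which was 1.90-fold lower by the means (log2 fold change -0.69, SE 0.10, limma adjusted p = 0.000138). SESA3 had 3.86, 3.28 and 4.81 FPKM in lon1-1, against 7.5, 6.67 and 6.45 FPKM in wt, which was 1.73-fold lower (log2 fold change -0.67, SE 0.10, limma adjusted p = 0.000207). Neither gene overlapped between the genotypes.

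SESA4, the last gene of the run, went the other way. It had 1.43, 1.53 and 1.17 FPKM in lon1-1, against 1.07, 0.53 and 0.36 FPKM in wt. All 3 lon1-1 libraries were above the wt libraries, but wt A was close to lon1-1 C, and the log2 fold change was 0.54 (ratio of the means 2.11, SE 0.14, 95% interval 0.23 to 0.86, limma adjusted p = 0.00561). These values stand for an estimated 24.9, 26.8 and 21 fragments in lon1-1, against 17.9, 8.88 and 5.94 in wt, and its standard error was the largest of the 10 genes. With 0.1 added in place of 1, its log2 fold change was 1.07. SESA5, which lies apart from the run on chromosome 5, had 7.47, 6.67 and 6.56 FPKM in lon1-1, against 7.25, 7.38 and 7.57 FPKM in wt. Those values overlapped, and the log2 fold change was -0.09 (95% interval -0.22 to 0.04, limma adjusted p = 0.175). SESA5 passed as lower under median-ratio scaling (-0.16, adjusted p = 0.0304), under upper-quartile scaling (-0.14, adjusted p = 0.0481) and without lon1-1 A (-0.14, adjusted p = 0.0449).

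Both oleosins fell in lon1-1, beside 32.3% lower among all genes tested. OLEO1 had 3.11, 2.25 and 3.37 FPKM in lon1-1, against 4.31, 4.15 and 4.36 FPKM in wt, which was 1.47-fold lower by the means (log2 fold change -0.44, SE 0.10, limma adjusted p = 0.00261). All of its lon1-1 libraries were below its wt libraries. OLEO2 had 2.85, 2.77 and 2.42 FPKM in lon1-1, against 3.53, 2.96 and 4.14 FPKM in wt, which was 1.32-fold lower (log2 fold change -0.30, SE 0.10, limma adjusted p = 0.017). Here lon1-1 A and wt B nearly met, and the call was lost without lon1-1 C (-0.25, adjusted p = 0.0612) and without wt C (-0.20, adjusted p = 0.0649).

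**Figure D2:**
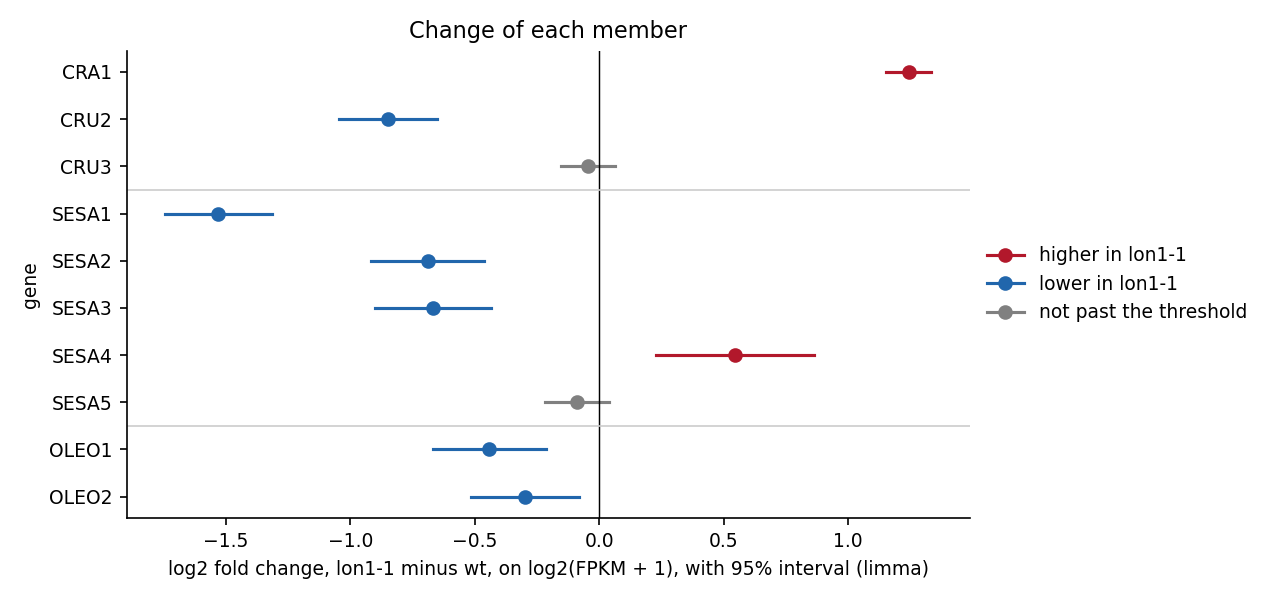
Log2 fold change of each gene, lon1-1 minus wt, on log2(FPKM + 1), with its 95% interval from limma. CRA1 at 1.24 and SESA4 at 0.54 lie to the right of 0, CRU2, SESA1, SESA2, SESA3, OLEO1 and OLEO2 lie to the left, and the intervals of CRU3 and SESA5 cross 0.

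Over the 10 genes, 8 passed the threshold, 2 higher and 6 lower in lon1-1, and the libraries of 8 did not overlap between genotypes. These counts stand beside 77.0% of all genes tested that passed, 44.7% higher and 32.3% lower, and 79.1% whose libraries did not overlap. The counts that passed and that did not overlap are close to that background. The median log2 fold change of the 10 genes was -0.37, against 0.08 for all genes tested. A stricter test, chosen after the data had been seen, asked whether a change exceeded a fold of 1.5 (limma's treat). It called 16.0% of all genes tested and 3 of the 10 genes, CRA1 higher and CRU2 and SESA1 lower in lon1-1. The direction of SESA1 in both counts was fixed by the filter.

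Summed by class, globulin transcripts were higher and albumin and oleosin transcripts lower in lon1-1. Globulin transcripts came to 85.86, 86.19 and 79.78 FPKM in lon1-1, against 50.38, 49.79 and 51.26 FPKM in wt, a ratio of 1.66. CRA1 was the only globulin called higher, while CRU2 was lower and CRU3 did not pass, so this rise came from CRA1. Albumin transcripts came to 15.97, 13.74 and 15.69 FPKM in lon1-1, against 24.65, 22.02 and 22.41 FPKM in wt, which was 1.52-fold lower. Oleosin transcripts came to 5.96, 5.02 and 5.79 FPKM in lon1-1, against 7.84, 7.11 and 8.5 FPKM in wt, which was 1.40-fold lower. In none of the 3 classes did the libraries of the genotypes overlap, and no test was made on these sums. The 10 genes together stood at 104.7 ± 3.27 FPKM in lon1-1 and 81.3 ± 2.11 FPKM in wt (SD, n = 3 each), a ratio of 1.29. Since the albumin and oleosin sums fell, the rise of this sum of 10 genes also came from CRA1. Globulins took 80.2% of this sum in lon1-1 and 62.1% in wt, albumins 14.5% and 28.3%, and oleosins 5.34% and 9.60%.

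CRA1 made up 72.6% of the globulin sum in lon1-1 and 49.9% in wt. Within the albumins, SESA1 contributed 5.04% of the sum in lon1-1 and 17.8% in wt, whereas SESA4 contributed 9.18% in lon1-1 and 2.78% in wt. The ratio of SESA4 to SESA1 was 1.51, 2.78 and 1.44 in lon1-1, against 0.254, 0.144 and 0.0820 in wt, so that the first and the last gene of the run stood in opposite order in the 2 genotypes. CRA1 exceeded SESA1 by 64.5, 115.6 and 71.7 times in lon1-1, against 5.81, 6.85 and 5.87 times in wt. CRA1 and SESA1 gave the largest rise and the largest fall of the 10 genes. These ratios rest on few fragments, an estimated 9.92 to 17 for SESA1 in lon1-1 and 5.94 to 17.9 for SESA4 in wt. OLEO1 and OLEO2, in contrast, kept shares that overlapped between genotypes, with OLEO1 at 51.7% of the oleosin sum in lon1-1 and 54.9% in wt.

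**Figure D3:**
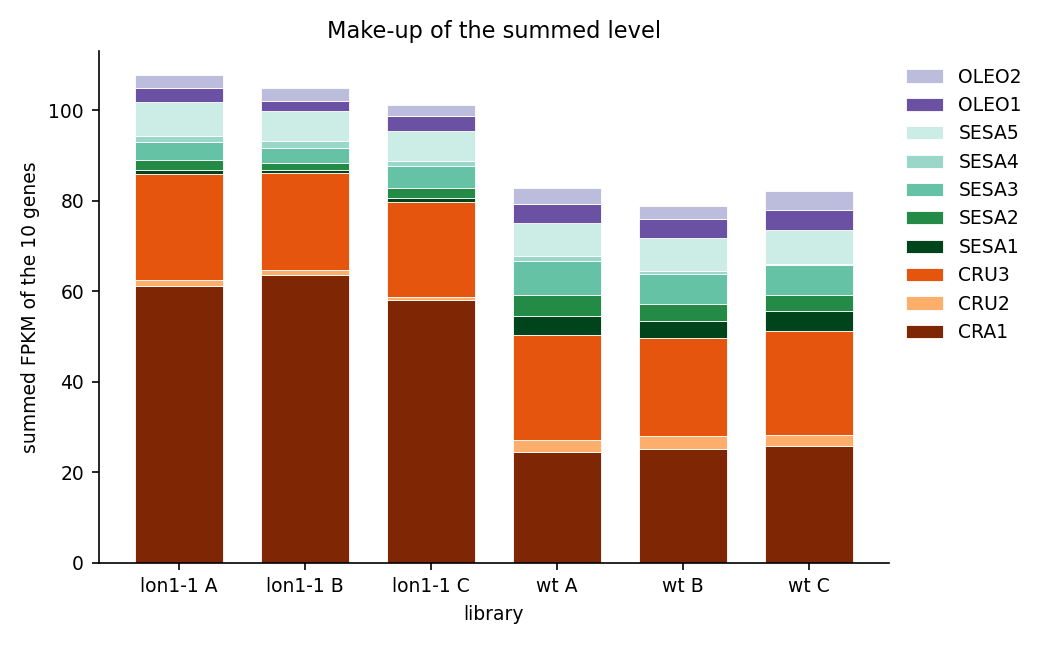
Summed FPKM of the globulins, albumins and oleosins in each library, stacked from 0, with the 3 lon1-1 libraries left of the 3 wt libraries. The globulin part is larger in lon1-1 (79.78 to 86.19 FPKM) than in wt (49.79 to 51.26 FPKM), and the albumin and oleosin parts are smaller. Among the globulins only CRA1 was called higher.

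FPKM is scaled to transcript length, so levels can be ordered between genes. In lon1-1 the order of the means was CRA1, CRU3, SESA5, SESA3, OLEO1, OLEO2, SESA2, SESA4, CRU2 and SESA1. Its overlapping neighbours were SESA3 with OLEO1, OLEO1 with OLEO2, and CRU2 with SESA1. In wt the order was CRA1, CRU3, SESA5, SESA3, OLEO1, SESA1, SESA2, OLEO2, CRU2 and SESA4. There SESA5 overlapped SESA3, and OLEO1, SESA1 and SESA2 each overlapped the gene after it. CRA1 stood at percentile 92.0 of all listed genes in lon1-1 and 81.5 in wt, and SESA1 stood at percentile 24 in lon1-1 and 44.4 in wt.

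Other genes of the oil body coat went in both directions. Of 15 listed, 9 were tested, of which 5 rose, 2 fell and 2 did not pass, with a median log2 fold change of 0.21. Of all genes tested, 44.7% were higher and 32.3% were lower. LDAP2, a lipid droplet protein, had 316.82, 301.44 and 328.08 FPKM in lon1-1, against 117.14, 122.09 and 122.90 FPKM in wt (log2 fold change 1.38, limma adjusted p = 1.15e-09). CLO3, a caleosin of vegetative lipid droplets, had 18.63, 16.93 and 16.49 FPKM in lon1-1, against 7.12, 6.53 and 6.92 FPKM in wt (1.22, limma adjusted p = 3.28e-08). The oleosin gene AT3G01570 also rose (1.10, limma adjusted p = 2.19e-05), as did LDAP1 (0.35, limma adjusted p = 7.92e-05). The 2 that fell were LDAP3 (-0.34, limma adjusted p = 2.14e-05) and the oleosin gene OLEO3 (-0.28, limma adjusted p = 0.000107). OLEO3 was at 16.41 to 17.29 FPKM in lon1-1 and 20.31 to 21.29 FPKM in wt. Of 7 other genes of the cupin fold listed with the storage globulins, 5 stayed under 1 FPKM in every library. Both that were tested rose, beside the same 44.7% of all genes tested. PAP85, a vicilin-like globulin, had 2.37, 2.54 and 2.30 FPKM in lon1-1, against 1.73, 1.49 and 1.59 FPKM in wt (0.39, limma adjusted p = 0.000483). AT1G07750, listed only as a cupin, was at 90.69 to 93.18 FPKM in lon1-1 and 82.93 to 87.51 FPKM in wt (0.12, limma adjusted p = 0.00648). Of PAP85 and AT1G07750, 1 passed under median-ratio and under upper-quartile scaling.

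Genes that sort or cut storage proteins on their way to the vacuole were all tested. Of these, 5 of 9 rose, 2 fell and 2 did not pass (median 0.27), beside 44.7% higher and 32.3% lower among all genes tested. The vacuolar processing enzymes, which cut storage proteins into their mature chains, changed in different directions. DELTA-VPE, known from the seed coat, had 4.97, 5.77 and 4.98 FPKM in lon1-1, against 1.07, 1.38 and 0.77 FPKM in wt (1.60, limma adjusted p = 4.63e-07). BETA-VPE, the enzyme of embryo storage vacuoles, had 18.41, 18.04 and 18.62 FPKM in lon1-1, against 9, 9.55 and 8.73 FPKM in wt (0.94, limma adjusted p = 4.41e-08). GAMMA-VPE, the enzyme of vegetative vacuoles, was lower, at 100.37 to 106.16 FPKM in lon1-1 and 197.31 to 200.67 FPKM in wt (-0.95, limma adjusted p = 4.01e-09). The vacuolar aspartic protease APA1 was also lower, at 261.74 to 273.72 FPKM in lon1-1 and 389.14 to 414.87 FPKM in wt (-0.59, limma adjusted p = 2.2e-07).

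Activators of seed maturation were measured in part. Of 13, LEC1, L1L, LEC2, FUS3 and BZIP67 stayed under 1 FPKM in every library. Of the 8 tested 5 rose, 2 fell and 1 did not pass (median 0.48), beside 44.7% higher and 32.3% lower among all genes tested. ABI4, an AP2-domain factor of abscisic acid and sugar signalling, had 6.61, 5.97 and 6.19 FPKM in lon1-1, against 0.26, 0.23 and 0.26 FPKM in wt (2.54, limma adjusted p = 6.87e-10). ABI3, the B3 factor that acts on RY elements, had 2.10, 2.11 and 1.79 FPKM in lon1-1, against 0.72, 0.48 and 0.58 FPKM in wt (0.91, limma adjusted p = 4.52e-06). These 2 genes passed the filter only through lon1-1, so their calls were bound to show a difference in that direction. The count of activators that rose and their median include both. The bZIP factors ABI5 (0.53, limma adjusted p = 0.000211) and BZIP10 (0.56, limma adjusted p = 3.02e-06) also rose. The bZIP factor BZIP53 fell (-0.27, limma adjusted p = 6.2e-05), and BZIP25 did not pass (-0.03, limma adjusted p = 0.562). WRI1, whose libraries overlapped between genotypes, was also called lower (-0.23, limma adjusted p = 0.043). Among 14 repressors of seed genes in seedlings, all tested, 10 rose, none fell and 4 did not pass (median 0.23), against 44.7% of all genes tested that rose. CLF, the histone methyltransferase of Polycomb complex PRC2, had 11.66, 11.07 and 11.74 FPKM in lon1-1, against 4.34, 4.25 and 4.56 FPKM in wt (1.21, limma adjusted p = 1.71e-08). Next in size were the histone deacetylase HDA19 (0.54), the chromatin remodeller PKL (0.52) and the ubiquitin ligase BMI1B (0.45).

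**Figure D4:**
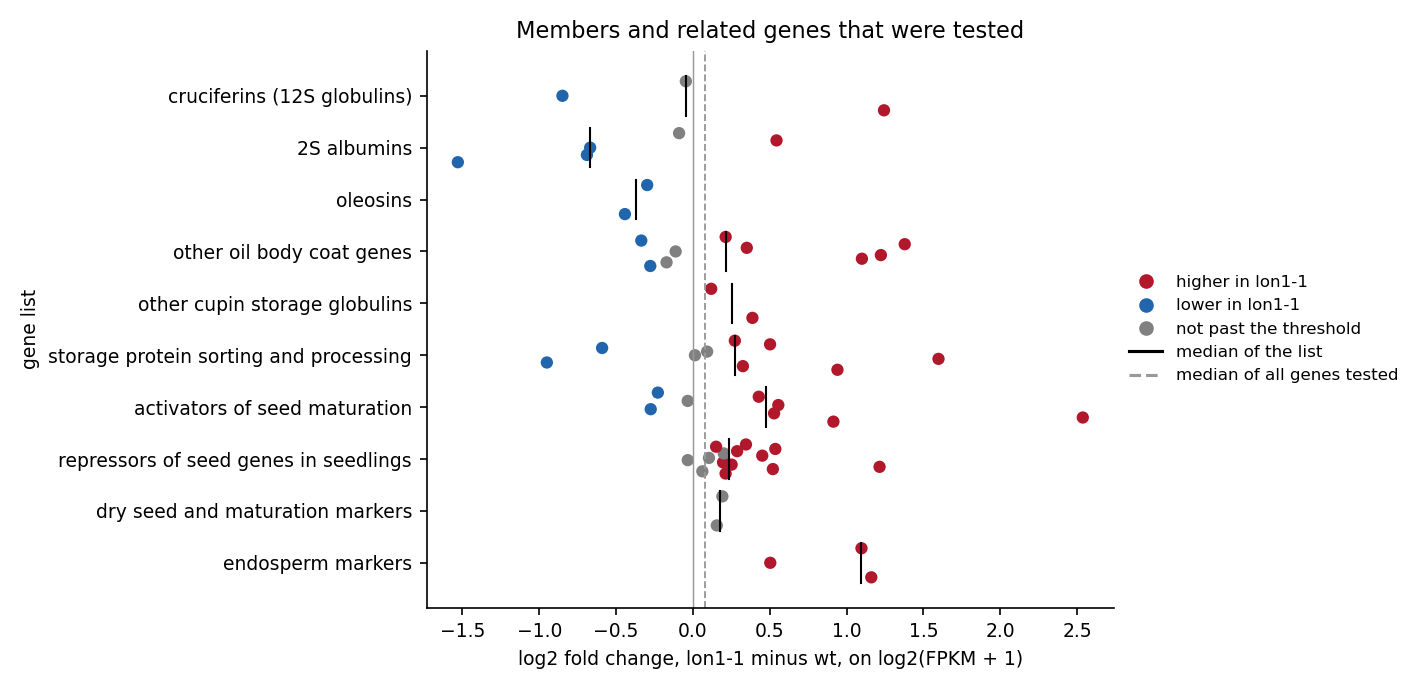
Log2 fold change, lon1-1 minus wt, of every tested gene in the member classes and the related lists, coloured by call, with the median of each list as a black bar and the median of all genes tested (0.08) as a dashed line. The medians of the 3 member classes lie left of the dashed line, and those of the 7 related lists shown lie right of it. SESA1 passed the filter only through wt, and ABI3, ABI4 and EPR1 only through lon1-1. The seedling tissue markers, not drawn, have a median of 0.04, left of the line.

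Transcripts left from the seed or in the seed's outer tissues were followed with 2 marker lists. Of 8 dry seed and maturation markers, 5 stayed under 1 FPKM in every library and M17 reached it in lon1-1 C alone, at 1.18 FPKM. None was at 0 in all 6 libraries, but DOG1, the dormancy gene, was at 0 in 4 of them. Their summed level was 5.83 to 6.22 FPKM in lon1-1 and 3.97 to 4.73 FPKM in wt. The only markers of this list that were tested, PER1 (log2 fold change 0.16, limma adjusted p = 0.0766) and LEA76 (0.19, limma adjusted p = 0.0675), did not pass in limma, and neither had an unadjusted p under 0.05. Without lon1-1 C, without wt A or without wt B, 1 of them passed, and without the trend both did. All 3 endosperm markers rose, beside 44.7% higher among all genes tested, and none was at 0. The 3 markers summed to 31.7 to 32.3 FPKM in lon1-1 and 18.1 to 18.9 FPKM in wt. EPR1, an extensin-like protein of the endosperm, had 1.5, 2.64 and 1.29 FPKM in lon1-1, against 0.22, 0.15 and 0.33 FPKM in wt. EPR1 passed the filter only through lon1-1, which fixed the direction of its call, and without any 1 of the lon1-1 libraries 2 of the 3 markers were called. MAN7, a mannanase, had 9.38, 9.01 and 9.08 FPKM in lon1-1, against 3.64, 3.88 and 3.73 FPKM in wt. EXPA2, an expansin, made up most of the endosperm sum, at 20.83, 20.19 and 21.91 FPKM in lon1-1, against 14.62, 14.04 and 14.85 FPKM in wt. Its log2 fold change was 0.50. The part of these tissues in the levels of the storage protein genes was not tested.

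The nearest 2 protein-coding genes on each side of each gene, or of the albumin run, gave 28 neighbours. Of the 18 tested, 13 rose, 4 fell and 1 did not pass, beside the 44.7% higher and 32.3% lower among all genes tested. NAC074, beside CRU3 and 1 of the 4 that fell, had 0.39 to 0.59 FPKM in lon1-1 and 1.43 to 1.68 FPKM in wt. It passed the filter only through wt, which fixed the direction of its call. Only 2 of the neighbours called changed by at least 1 on the log2 scale. ABCI21, an ABC transporter family protein on the same strand as CRA1 and 469 bases from it, had 54.52, 54.01 and 49.28 FPKM in lon1-1, against 7.13, 6.43 and 6.40 FPKM in wt. That is a log2 fold change of 2.81 (95% interval 2.69 to 2.93, limma adjusted p = 9.99e-11), above the interval of CRA1. PHB1, a prohibitin gene 673 bases from CRU3 on the opposite strand, had 19.30, 21.58 and 22.19 FPKM in lon1-1, against 9.54, 9.43 and 10.08 FPKM in wt (1.04, limma adjusted p = 1.01e-07), while CRU3 did not pass. On either side of the albumin run, the 3 tested neighbours AT4G27120, AT4G27130 and ATK2 were higher in lon1-1 by 0.41, 0.12 and 0.92 on the log2 scale. Within the run SESA1, SESA2 and SESA3 fell, and SESA4, the gene next to ATK2, rose (0.54).

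**Figure D5:**
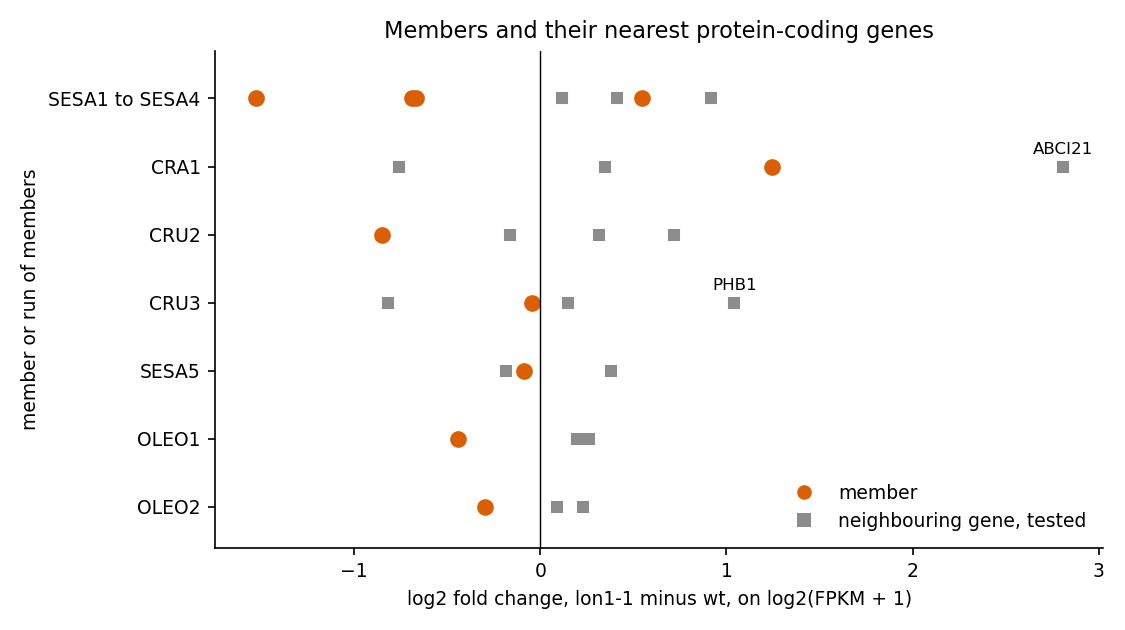
Log2 fold change, lon1-1 minus wt, of the members and of their tested neighbours, by locus, with the albumin run in 1 line. ABCI21 at 2.81 lies beside CRA1 at 1.24, and PHB1 at 1.04 lies beside CRU3 at -0.05. SESA1 and NAC074, a neighbour of CRU3, passed the filter only through wt.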

How the data were processed

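RNA of 3 lon1-1 and 3 wt seedling samples was analysed, described in the labels as independent biological replicates. Per the labels' protocols, ribosomal RNA was removed and libraries were stranded. The authors deposited FPKM per gene, written to 2 decimals. The submitters' processing notes name HISAT2, Bowtie2, RSEM and TAIR10 without versions or roles, and how reads that match several genes were divided is not given in the sources used here. From the deposited FPKM, log2(FPKM + 1) was computed and fitted with limma 3.58.1 in R 4.3.3 (empirical Bayes with a mean-variance trend, genotype as the only term) over the 18308 genes that reached 1 FPKM in 3 or more libraries, with Benjamini-Hochberg adjustment and a threshold of 0.05. The procedure was tested on simulated data in which far fewer genes changed than were called here, so that test does not show how it performs in this setting.

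No counts are in the table. Low FPKM of short transcripts rise in steps of 1 fragment, and depth was read from these steps with 180 bases taken off each length. Of the values used, 96.7% to 98.4% came within 0.15 of whole fragments. Depth and offset had been chosen to bring these values close to whole fragments, so a high share was favoured by that choice. In a transcript of 1 kilobase, 1 FPKM stands for 26.6 to 28.9 fragments.

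Symbols, positions and upstream sequences come from RefSeq's TAIR10.1 annotation. The table's own build is TAIR10, and no coordinates were carried over. The upstream region of CRU2 is not reported here. Letters A, B and C were not treated as pairs.

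The 10 genes and the lists of related genes were chosen with earlier results of these data known. Named were all 10 genes, LON1, up to 4 called genes per related list by size of change, neighbours called with a log2 change of at least 1, and markers. The other neighbours of the albumin run, OLEO3, LDAP3 and genes counted by name under 1 FPKM were named after their values were seen. NAC074, BZIP53, BZIP25 and WRI1 were also named with their values known. Alternatives were a pseudocount of 0.1, no filter, median-ratio and upper-quartile scaling, a replicate block, no trend, leaving out each library, and limma's treat against a fold of 1.5, added later.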

Additional observations from a re-analysis of the deposited data

How the results depend on the processing

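All 10 genes kept their direction under every alternative in which they were tested. For SESA1 the filter fixed that direction wherever it was applied, and without the filter its log2 fold change was -1.53. Without wt A, SESA4 passed the filter only through lon1-1, which fixed its direction there. SESA1 was not tested when a wt library was left out, since it then missed the filter. Calls of CRU3, SESA5 and OLEO2 changed as given with their values. Under limma's treat against a fold of 1.5, chosen after the data had been seen, 2933 genes passed, 1525 higher and 1408 lower. It called 3 of the 10 genes, 1 albumin and 0 oleosins, with 0 oleosins at an unadjusted p under 0.05. Of the other genes tested, it also called 3 of 9 of the oil body coat and 0 of 2 cupin genes. It called 3 of 9 sorting and processing genes, 2 of 8 activators and 1 of 14 repressors. Markers called were 2 of 3 of the endosperm, 5 of 6 of seedling tissue and 0 of 2 of the dry seed. Among all genes tested the share was 16.0%. The albumin was SESA1, the 2 activators were ABI3 and ABI4, and the endosperm markers included EPR1, genes whose direction the filter fixed. Leaving out each library gave 1 to 2 oleosins, 4 (without lon1-1 B) to 6 activators and 0 to 1 dry seed markers called. Without the filter, and without the trend, 2 dry seed markers passed in each case. Median-ratio and upper-quartile scaling each left 1 other cupin gene called. Under median-ratio scaling the log2 ratio of summed FPKM was 0.66 for cruciferins (0.73 as reported) and 0.29 for all 10 genes (0.36), and the median of all genes tested moved to 0.01. Under the replicate block 14046 genes and 8 of the 10 genes passed. Libraries that share a letter did not deviate together (correlations 0.06, 0.02 and -0.03). Fragments limit SESA4 and SESA1 most, since 5.94 fragments is the lowest estimate behind a value, in wt C for SESA4.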
